A study of Mus musculus with 4 samples.

Results

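The genes described here are those of motile cilia and of the ependymal cells that carry them, in the prefrontal cortex of mice that differed in diet and in the dose of Glo1, which encodes glyoxalase 1, an enzyme that removes methylglyoxal. They were chosen by name: every gene symbol on the array that begins with Dnah, Dnaic, Dnali, Rsph, Tekt, Spag, Spef, Efhc or Ift, together with Foxj1, Wdr63, Ak7, Tmem212, Ccdc153, Ccdc39 and Ccdc40, provided that a probe of the gene was well above background on at least 1 array. Of 69 matching names, 66 met this condition, among 22600 genes that met it in the whole data set. The 3 names left out, Dnah3, Ift88os and Tekt3, reached at most 0.0039, 0.00241 and 0.00134 times the array's 75th percentile, whereas the dimmest names kept, Ak7, Spag8 and Spag17, reached 0.00918, 0.0131 and 0.0162. The name rule is wider than motile cilia. The Ift genes serve every cilium, including the single immotile primary cilium of neurons, several Spag genes have roles outside cilia, and Dnah2os and Spag17os are antisense transcripts.

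The samples were prefrontal cortex of B6J mice aged 3 months, which had been fed starch or sucrose for about 70 days, beginning at postnatal day 21. Each diet was given to wild-type mice and to mice heterozygous for Glo1, which makes 4 groups: wild-type starch (the control), wild-type sucrose, Glo1 heterozygous starch and Glo1 heterozygous sucrose. In each group 3 independent total RNA samples were mixed, and 200 ng of RNA was labelled with Cy3 and read on 1 one-colour Agilent array. With 1 array per group there was no replicate, so no comparison below has a p-value or an error between animals, and the 4 positions of the 1 slide cannot be told apart from the 4 groups.

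Motile cilia are hair-like organelles that beat by means of an axoneme, a ring of microtubule doublets around a central pair. Dynein arms on the doublets are the motors, radial spokes and the central pair govern their beat, and FOXJ1 and RFX transcription factors switch on the genes that build them. In the brain, multiciliated ependymal cells line the ventricles and move cerebrospinal fluid, and the epithelium of the choroid plexus, which secretes that fluid, also bears motile cilia. The cortex proper holds few such cells.

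A level is given throughout as the signal of the gene's brightest probe divided by the 75th percentile of the non-control spots of its array, and a change is the difference of 2 such levels on the log2 scale. A change counts as measured where the probe was well above background on both arrays, and as a lower bound ("at least") where it was so on 1 of them. The bound divides the brighter signal by what the dim probe itself gave or, where that was lower, by the least signal still well above background on the dim array. The percentile lay at an intensity of 1780 to 1929 on the 4 arrays, 77.6% to 80.2% of probes were well above background, and no spot was saturated. Glo1 itself stood at 4.04 on wild-type starch, 5.53 on wild-type sucrose, 2.74 on heterozygous starch and 3.04 on heterozygous sucrose, lower in the heterozygous group on each diet.

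The marker genes of other cell types and regions differed between the arrays, and these values stand beside every result below. The 20 choroid plexus markers summed to a level of 17.4 on wild-type starch, 18.7 on wild-type sucrose and 16.7 on heterozygous starch, but 108.6 on heterozygous sucrose. Ttr, which encodes transthyretin, stood at 0.259, 1.42, 0.101 and 58.7 on these arrays in that order. The 7 olfactory bulb markers summed to 11.1, 2.74, 10.4 and 6.51, lowest on wild-type sucrose, and the 10 striatal markers to 34.2, 56.4, 52.5 and 29.4. All 10 markers of cortical excitatory neurons were well above background on every array, with sums of 42.6, 50.7, 45.8 and 43.6. In tissue RNA of this kind, fewer cells of a type and less RNA per cell cannot be told apart.

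Of the 66 genes, 61 were well above background on all 4 arrays. Ak7, Dnah12 and Spag17 were so on heterozygous sucrose alone, Spag11a on wild-type sucrose alone, and Tmem212 on every array except heterozygous starch. As a group the genes were dim: 44 lay below the median signal of all genes and 22 above it. The only repeat measure available is that of probes printed several times on 1 array. The difference of 2 such spots was taken in 4 classes of equal gene number, ordered by signal. Its SD on the log2 scale was 0.476 in the dimmest class (8 sets of spots), 0.124 and 0.107 in the middle classes and 0.0677 in the brightest, and 24, 20, 12 and 10 of the 66 genes lay in these classes. This spread covers spots of 1 array only, not mice or labelling reactions.

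The genes that rose in the diet comparison of Glo1 heterozygous mice included parts of the dynein arms, spokes, tektins and central pair as well as the regulator Foxj1, while other genes of the same structures did not pass 2-fold. In the heterozygous mice, 14 of 61 measured genes were 2-fold or more higher on sucrose than on starch and 0 were lower, where 1.32% of all 20789 measured genes were higher and 0.515% lower. The median change of the 61 genes was 0.13, and that of all genes was 0.00. A further 3 genes, Dnah12, Spag17 and Tmem212, were at least 2-fold higher by their lower bound, of 4 genes with a bound; 17.2% of all genes with a bound were. Dnah12 and Spag17 entered the set only through heterozygous sucrose, so the sign of their bounds was fixed by the background rule. All 14 measured rises were in genes below the median signal, where 3.45% of all genes of the dimmest class and 1.45% of the class above it rose by as much. The remaining 47 measured genes stayed within 2-fold in either direction. The alternative background correction normexp starts from the mean signal and local background of each spot, not from the deposited background-subtracted signal. It corrects the one for the other by a model and then adds 50 intensity units. Under normexp, 8 of the 61 passed 2-fold in place of 14, and the share of all genes that did was 0.529% in place of 1.32%.

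**Figure D1:**
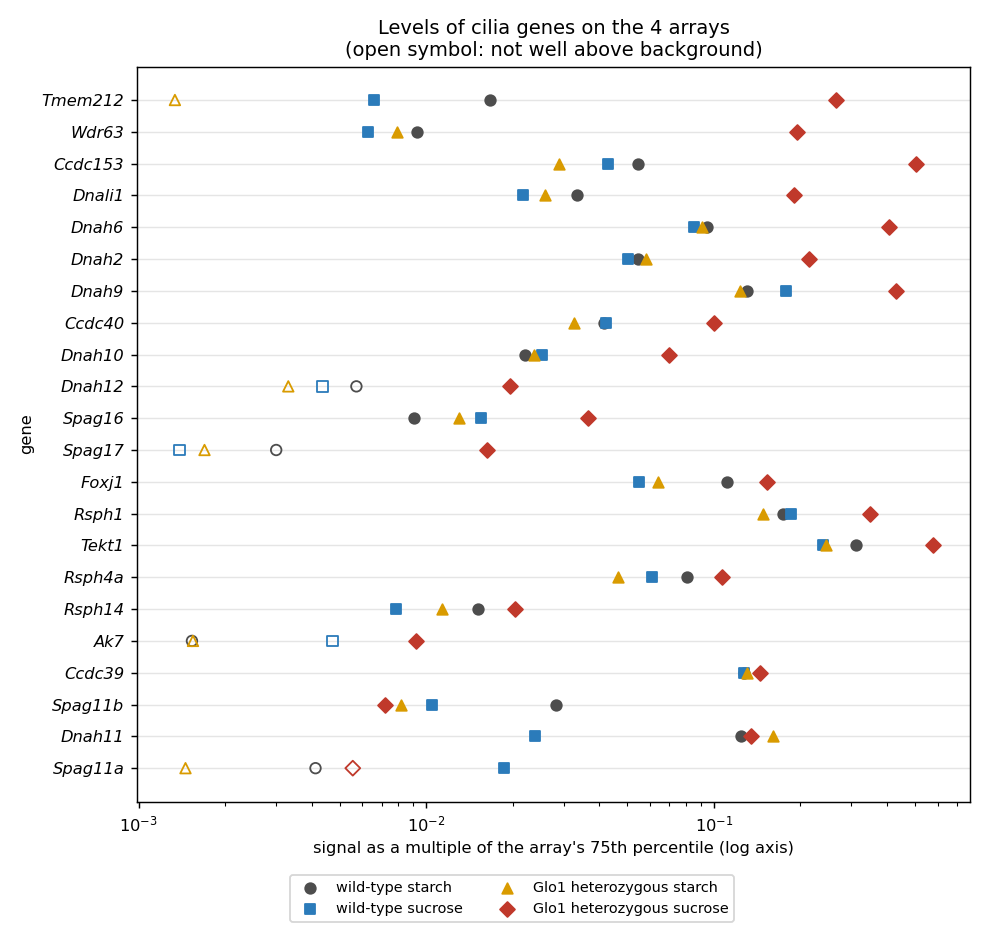
Levels of cilia genes that differed by 2-fold or more, as a value or a bound, in any comparison, with Ak7 and Ccdc39, on the 4 arrays; the horizontal log axis gives the signal as a multiple of the array's 75th percentile, and each symbol is 1 array, open where the probe was not well above background. The heterozygous sucrose array lies to the right of the other 3 from Tmem212 down to Ak7, with Wdr63 at 0.195 against at most 0.00926, whereas Spag11b, Dnah11 and Spag11a have other arrays on top.

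The regulator Foxj1, the forkhead factor that switches on motile ciliogenesis, stood at 0.111 on wild-type starch, 0.0549 on wild-type sucrose, 0.0639 on heterozygous starch and 0.153 on heterozygous sucrose. It was thus low on both middle arrays and highest on heterozygous sucrose, and the diet change was 1.26 in heterozygous mice and -1.01 in wild-type mice. Under normexp both changes were below 2-fold, at 0.88 and -0.72.

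The genes with the steepest rise encode an intermediate chain of the inner dynein arm and 2 proteins known as ependymal markers. Wdr63, the intermediate chain, stood at 0.00926, 0.00629 and 0.00794 on wild-type starch, wild-type sucrose and heterozygous starch, and at 0.195 on heterozygous sucrose. The first 3 arrays lay near the floor of detection and close together, and the fourth was 24.6-fold above its starch counterpart (log2 change 4.62; -0.56 in wild-type mice). Its other probe was above background on heterozygous sucrose alone and rose there by at least 1.84. Ccdc153, a coiled-coil protein of motile cilia, stood at 0.0545, 0.0429, 0.0289 and 0.505 on the arrays in the same order, 17.5-fold higher on sucrose in heterozygous mice (4.13; -0.35 in wild-type mice). Tmem212, a membrane protein found in ependymal cells, stood at 0.0167, 0.00659, 0.00134 and 0.266, and the third of these values was not above background. Its rise in heterozygous mice was at least 39.8-fold (a bound of 5.32 on the log2 scale), while in wild-type mice it was lower on sucrose by a change of -1.34, between values close to the lowest signal that counted as above background (0.00552 to 0.00672). The size of these rises depends on the background correction: under normexp they were 2.34 for Wdr63, 2.90 for Ccdc153 and 3.00 for Tmem212 on the log2 scale.

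The probes of these genes lie, in mm9 coordinates of the files, at chr3:145703558-145703617 on the minus strand for Wdr63, chr9:44054861-44054920 on the plus strand for Ccdc153, chr3:27765044-27765103 on the minus strand for Tmem212 and chr11:116192214-116192273 on the minus strand for Foxj1. Each is 60 bases long. Whether a probe lies in coding sequence or in a UTR was not analysed here.

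The promoters of the 66 genes were read for motifs of the factors that drive ciliary genes. RefSeq promoters of assembly GRCm38.p6, from 250 bases before the start to 50 after it, were matched for 54 of the 66 genes. The match used the symbol that RefSeq gives the probe's transcript or, where it gives none, the array's symbol. Foxj1 was not among the 54. The RFX core GTTGCC, on either strand, stood in 19 of 54 (35.2%), against 3821 of 27025 genes of the table (14.1%). It stood in 4 of the 13 risen genes with a promoter (30.8%: Ccdc153, Dnah10, Spag16 and Tekt1) and in 15 of the other 41 (36.6%). Within the latter it stood in 5 of 11 Ift genes (45.5%), none of which passed 2-fold by its brightest probe. The longer RFX motif, GTTNCC and GGNAAC with 0 to 3 bases between them, stood in Ift57 alone (1.85%, against 0.936% of the table) and can overlap the core, and the forkhead core GTAAACA in Ak7 and Dnah17 (3.70%, against 4.05%). The shares are descriptions with no test, and a match is not evidence of binding. The 250 bases before the start are shown for Wdr63 (the gene with the steepest measured rise, no match), for Ccdc153 and Tekt1 (risen, with the core) and for Ift57 (not risen, with the core and the longer motif). They read 5′ to 3′ on the strand of the gene, with RFX matches in capitals, and lie at chr3:146108037-146108286 (minus), chr9:44240427-44240676 (plus), chr11:72361883-72362132 (minus, 1 of 2 starts in the table) and chr16:49699044-49699293 (plus).
Wdr63: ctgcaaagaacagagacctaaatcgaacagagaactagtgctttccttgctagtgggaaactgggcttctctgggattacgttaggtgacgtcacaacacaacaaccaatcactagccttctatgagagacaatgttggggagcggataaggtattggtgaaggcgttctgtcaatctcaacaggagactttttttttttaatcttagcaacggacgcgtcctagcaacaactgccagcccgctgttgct
Ccdc153: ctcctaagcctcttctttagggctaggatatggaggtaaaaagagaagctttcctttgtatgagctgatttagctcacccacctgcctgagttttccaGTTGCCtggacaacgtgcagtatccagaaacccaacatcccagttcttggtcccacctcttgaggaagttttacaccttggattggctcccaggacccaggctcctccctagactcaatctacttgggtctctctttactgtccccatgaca
Tekt1: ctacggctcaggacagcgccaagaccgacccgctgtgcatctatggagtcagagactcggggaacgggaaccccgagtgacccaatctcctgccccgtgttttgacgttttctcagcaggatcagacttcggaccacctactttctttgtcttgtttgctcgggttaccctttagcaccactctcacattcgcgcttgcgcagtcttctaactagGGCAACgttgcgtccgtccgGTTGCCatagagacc
Ift57: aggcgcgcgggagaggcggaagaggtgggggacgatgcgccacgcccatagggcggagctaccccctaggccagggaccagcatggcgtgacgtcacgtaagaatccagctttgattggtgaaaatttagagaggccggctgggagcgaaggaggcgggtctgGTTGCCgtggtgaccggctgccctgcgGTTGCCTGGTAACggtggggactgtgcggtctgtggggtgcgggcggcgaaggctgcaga
In Ccdc153 the core begins 152 bases before the start, in Tekt1 matches begin 35 and 15 bases before it, and in Ift57 the longer motif begins 60 bases before it.

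Among the other genes named singly by the rule, Ccdc40 rose and its partner Ccdc39 did not. CCDC39 and CCDC40 together form the ruler that spaces radial spokes and inner arms along the axoneme. Ccdc40 stood at 0.0414, 0.0422, 0.0327 and 0.100 on wild-type starch, wild-type sucrose, heterozygous starch and heterozygous sucrose, a diet change of 1.62 in heterozygous mice and 0.03 in wild-type mice (0.998 in heterozygous mice under normexp, just below 2-fold). Ccdc39 stood at 0.127, 0.127, 0.130 and 0.145, a diet change of 0.16 in heterozygous mice, close to the spread of repeat spots. Ak7, an adenylate kinase of the axoneme, was above background on heterozygous sucrose alone, at 0.00918, and its bound of at least 0.46 does not reach 2-fold.

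The inner dynein arms, which shape the bend of the cilium, had the most rising heavy chains. Of 7 measured inner arm genes 3 were 2-fold or more higher on sucrose in heterozygous mice, Dnah12 was so by its bound, and the median change was 0.54. Dnah6 stood at 0.0947, 0.0856, 0.0906 and 0.407, so that 3 arrays agree within 1.11-fold and heterozygous sucrose lies 4.49-fold above heterozygous starch. Dnah2 stood at 0.0546, 0.0503, 0.0581 and 0.214 (3.68-fold). Dnah10 stood at 0.0221, 0.0253, 0.0236 and 0.0696 (2.94-fold), and Dnah12 was above background on heterozygous sucrose alone, at 0.0195, a change of at least 1.54. In Dnah12 both other probes, which the files place at 1 and the same position, were likewise above background on that array alone, at 0.0174 and 0.0495, with bounds of 1.38 and 2.89. Under normexp Dnah10 changed by 0.74, below 2-fold, and Dnah6, Dnah2 and Dnah12 by 1.81, 1.35 and 1.08. The remaining inner arm genes stayed below 2-fold. Dnah7a, the brightest of them, stood at 0.853, 0.670, 0.750 and 0.714 (-0.07), Dnah14 at 0.0274, 0.0249, 0.0271 and 0.0254 (-0.09), and the changes of Dnah1 and Dnah7b were 0.54 and 0.43. Dnah7a and Dnah7b are near-identical copies, and whether their probes also bind each other's transcript was not tested.

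In the outer arms, which supply most of the beat's force, 1 of 5 heavy chains rose in heterozygous mice and the median change was 0.22. Dnah9 stood at 0.130, 0.178, 0.123 and 0.429 (3.49-fold, log2 change 1.80), and 2 other probes of the gene that were above background on all arrays rose by 1.64 and 1.43. Dnah11, another outer arm heavy chain, followed another order, with 0.124, 0.0239, 0.161 and 0.135, low on wild-type sucrose and alike on the rest. Its diet change was -2.38 in wild-type mice and -0.25 in heterozygous mice. Dnah8 stood at 0.117, 0.134, 0.0977 and 0.124 (0.34), and the changes of Dnah5 and Dnah17 were 0.22 and 0.15.

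Among the smaller dynein chains, Dnali1 and Wdr63 of the inner arm rose, and Dnaic1 and Dnaic2 of the outer arm did not. The inner arm's light intermediate chain, Dnali1, stood at 0.0334, 0.0218, 0.0259 and 0.189, a 7.32-fold rise on sucrose in heterozygous mice (2.87; -0.62 in wild-type mice). Under normexp the rise was 1.72. The outer arm's intermediate chains did not: Dnaic1 stood at 0.835, 0.743, 0.743 and 0.727 (-0.03) and Dnaic2 at 0.150, 0.140, 0.125 and 0.140 (0.17). Of the 4 genes, 2 rose, and the median change was 1.52. With 2 genes per arm these values do not show a division by arm, and the outer arm heavy chain Dnah9 rose as well. Dnali1 and Wdr63 were also dimmer than Dnaic1 and Dnaic2 on every array except heterozygous sucrose.

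Radial spoke genes, whose products link the doublets to the central pair, passed 2-fold on sucrose in heterozygous mice in 2 of 7 cases, and the median change was 0.48. Rsph1, of the spoke head, stood at 0.173, 0.186, 0.148 and 0.348 (1.23). Rsph4a, also of the spoke head, stood at 0.0803, 0.0608, 0.0465 and 0.107 (1.20), and here wild-type starch lay nearer to heterozygous sucrose than the middle arrays did. Under normexp Rsph4a changed by 0.75, below 2-fold, and Rsph1 by 1.01. The brightest member, Rsph3b, was flat at 5.95, 6.01, 5.62 and 5.99 (0.09), as was the dim Rsph6a at 0.0165, 0.0212, 0.0185 and 0.0188 (0.02). The changes of Rsph14, Rsph9 and Rsph3a were 0.85, 0.48 and 0.24.

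Of the 4 tektins, filament proteins that run along the doublets, 1 rose and the median change was 0.12. Tekt1 stood at 0.312, 0.239, 0.246 and 0.576 (1.23 in heterozygous mice, -0.38 in wild-type mice). Tekt4 stood at 0.206, 0.152, 0.138 and 0.186, highest on wild-type starch, and its change of 0.43 did not reach 2-fold. Tekt5 was lower on heterozygous sucrose, at 0.249, 0.256, 0.235 and 0.194 (-0.28), and Tekt2 changed by -0.19.

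Central pair genes were split. Spag16 stood at 0.00907, 0.0155, 0.0130 and 0.0364 (1.48; 0.78 in wild-type mice), and Spag17 was above background on heterozygous sucrose alone, at 0.0162, a rise of at least 1.28. Under normexp neither passed 2-fold, at 0.48 and 0.36. Their proteins bind each other on the central pair. The other members moved little: Spag6l stood at 0.0505, 0.0491, 0.0483 and 0.0381 (-0.34), and the changes of Spag6 and Spef1 were 0.22 and -0.04. The median of the 5 measured genes was -0.04. The array's names Spag6 and Spag6l are exchanged in the current RefSeq table, as their accessions show. Spef2 depends on the probe. The brightest probe, which represents the gene here, stood at 18.2, 17.8, 16.8 and 14.9 (-0.17), whereas a dimmer probe stood at 0.0386, 0.0264, 0.0312 and 0.129, a rise of 2.05 in heterozygous mice. Another dim probe was higher on sucrose there by at least 1.30, and the last was not above background on any array. The dimmer probes of Spef2 were looked at after their values had been seen.

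Of the Efhc genes, which encode calcium-binding proteins of the doublet wall, Efhc2 stood at 0.0927, 0.124, 0.0915 and 0.132. Both sucrose arrays lay above both starch arrays, and its diet change was 0.53 in heterozygous mice and 0.41 in wild-type mice, below 2-fold in each.

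The intraflagellar transport genes, whose products carry cargo along motile and primary cilia alike, stayed well within 2-fold by their brightest probes. All 14 changed by between -0.15 and 0.13 on sucrose in heterozygous mice, with a median of 0.03. Ift52 stood at 1.04, 1.14, 1.04 and 1.14 (0.13) and Ift74 at 1.54, 1.40, 1.38 and 1.5 (0.12). Ift27, the brightest and the lowest in change, stood at 8.04, 8.01, 7.65 and 6.91 (-0.15). Ift57, whose promoter holds the longer RFX motif, changed by 0.03. Ift140 depends on the probe, since another of its probes was 2-fold or more higher on sucrose in heterozygous mice, by value or bound. All the Ift genes lay above the median signal, so they differ in brightness from the genes that rose.

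The other Spag genes, most of them with roles outside the axoneme, had a median change of -0.13, and 0 of 7 passed 2-fold in heterozygous mice. Spag8 stood at 0.00732, 0.00899, 0.00924 and 0.0131 (0.50), Spag1, which helps to assemble dynein arms, at 0.194, 0.217, 0.197 and 0.213 (0.11), Spag4 at 0.0902, 0.0769, 0.0855 and 0.0706 (-0.27) and Spag7 at 19.4, 19.1, 20.9 and 19.1 (-0.13). Spag11b, an epididymal defensin-like gene, was highest on wild-type starch, at 0.0283, against 0.0105, 0.00818 and 0.00717. The antisense transcripts Dnah2os and Spag17os changed by 0.24 and 0.13, while Dnah2, whose probe lies on the opposite strand, rose by 1.88.

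**Figure D2:**
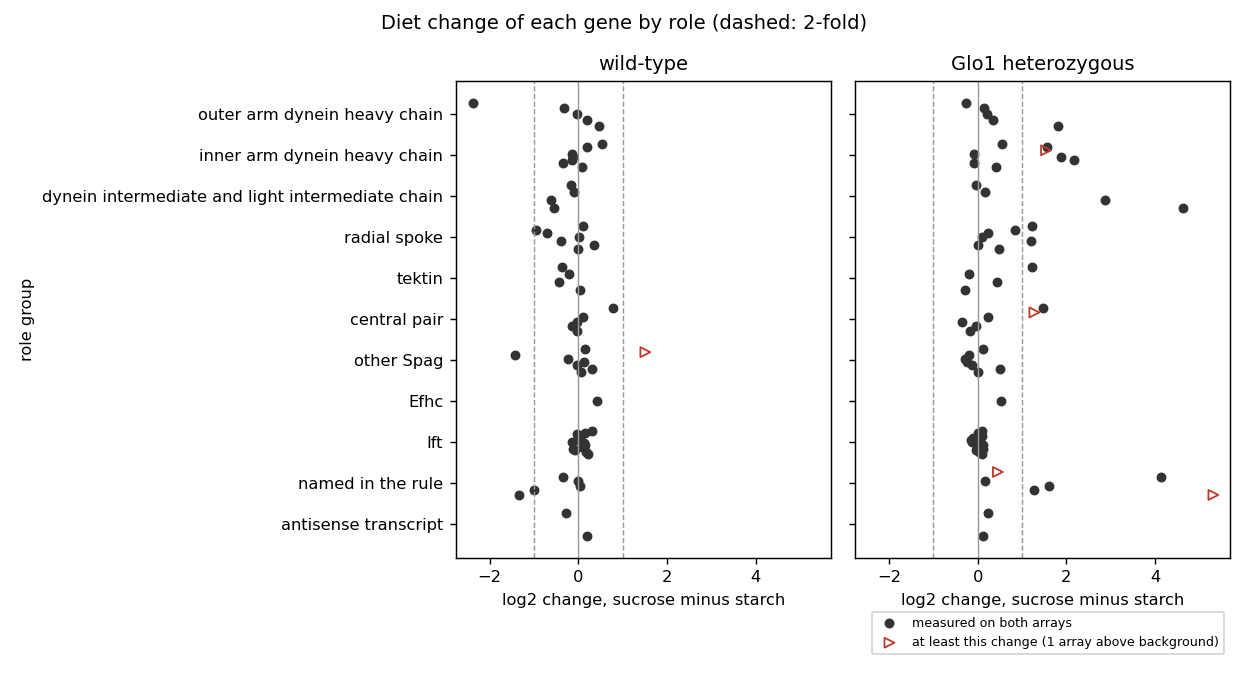
Change on the log2 scale from starch to sucrose (horizontal axis) for the cilia genes, by role group (vertical axis), in wild-type mice (left) and Glo1 heterozygous mice (right); each dot is 1 gene measured on both arrays, open triangles are lower bounds, and dashed lines mark 2-fold. Dots past the right dashed line appear in the right panel alone, in the dynein, spoke, tektin and central pair groups and among the genes named singly, whereas the 14 Ift genes stay between -0.15 and 0.13 there.

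In wild-type mice the same diet contrast gave other values. Of 62 measured genes 0 were 2-fold or more higher on sucrose and 4 were lower (Dnah11, Foxj1, Spag11b and Tmem212), where 0.575% of all measured genes were higher and 1.09% lower, and the median change was -0.02. Spag11a was above background on wild-type sucrose alone, at 0.0186, and higher there by at least 1.51 (9.46% of all genes with a bound were at least 2-fold higher). Under normexp, only Dnah11 of these 5 stayed past 2-fold, and Spag11b, Spag11a and Tmem212 stood at -0.52, 0.21 and -0.41. On the wild-type sucrose array the olfactory bulb markers were also low, 7 of 7 by 2-fold or more (median change -2.14), and the 10 striatal markers were higher (median change 0.99). Their part in the lower values of Dnah11 and Foxj1 was not tested.

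The difference between the diet changes of the genotypes (heterozygous minus wild-type) was 1 or more on the log2 scale in 15 of 61 genes measured on all arrays and -1 or less in 0, where 2.08% of all such genes were at 1 or more and 0.794% at -1 or less. Its median was 0.14. It was 5.18 for Wdr63, 4.47 for Ccdc153, 3.49 for Dnali1, 2.31 for Dnah6 and 2.28 for Foxj1. For Dnah11 it was 2.12 and for Spag11b 1.25, and neither came from a high value on heterozygous sucrose: Dnah11 was low on wild-type sucrose, and Spag11b was high on wild-type starch.

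**Figure D3:**
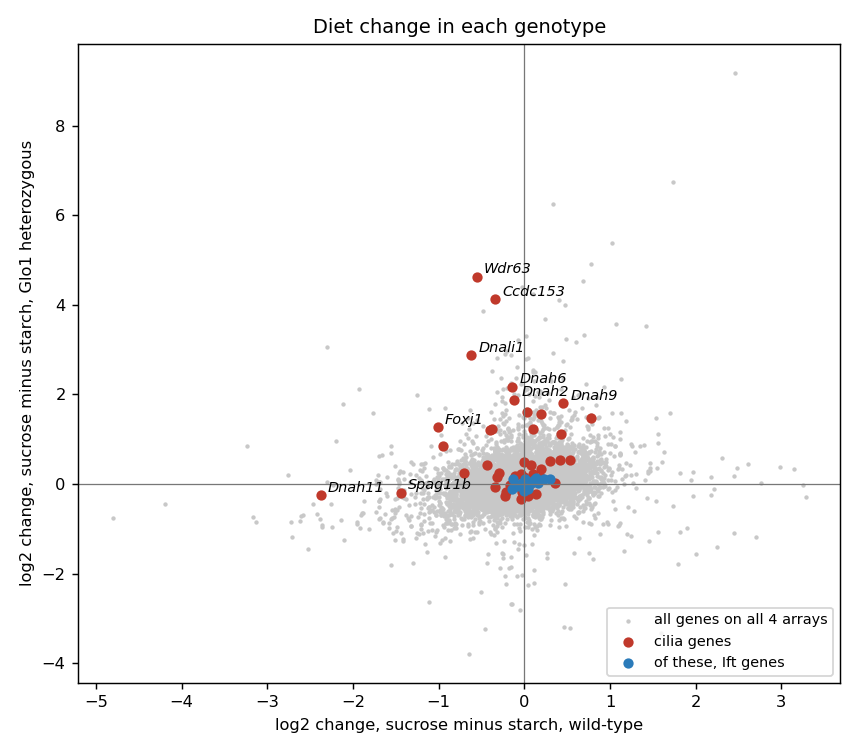
Change on the log2 scale from starch to sucrose in wild-type mice (horizontal axis) against that in Glo1 heterozygous mice (vertical axis), 1 point per gene that was well above background on all 4 arrays: 20645 genes in grey, the 61 cilia genes in colour, with the 14 Ift genes in blue. Wdr63 and Ccdc153 lie above 4 on the vertical axis and slightly left of 0 on the horizontal one, Dnah11 lies at -2.38 on the horizontal axis, and the Ift genes lie at the centre.

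The comparison of genotypes on each diet shares these arrays, so its values are set beside the diet changes and are no separate evidence. On starch, 0 of 61 genes were 2-fold or more higher in heterozygous mice (0.379% of all measured genes) and 1 was lower (Spag11b, -1.79; 0.509% of all), with Tmem212 lower by its bound of -1.32 (11.8% of all genes with a bound were at least 2-fold lower); the median was -0.07. On sucrose, 14 of 62 genes were higher in heterozygous mice (1.5% of all) and 0 lower (0.413%), with a median of 0.07. By their bounds, Dnah12 and Spag17 were higher by at least 1.82 and 1.56 (12% of all genes with a bound were at least 2-fold higher), and Spag11a was lower, at -1.47 (8.8% were at least 2-fold lower). The differences on sucrose were 4.96 for Wdr63, 5.34 for Tmem212, 3.56 for Ccdc153, 3.12 for Dnali1, 2.25 for Dnah6 and 1.48 for Foxj1. Dnah11 and Rsph14 were past 2-fold here, at 2.49 and 1.38, since both were low on wild-type sucrose (0.0239 and 0.00784), whereas Rsph1 and Rsph4a stood at 0.90 and 0.81. Between heterozygous sucrose and the wild-type starch control, 12 of 62 genes were higher (1.43% of all) and 1 was lower (Spag11b, -1.98; 0.668% of all). Foxj1 differed by 0.47 there, since its control level of 0.111 was the second highest.

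The heterozygous sucrose array was 2-fold or more above each of the other arrays for 9 of 61 genes (14.8%), against 0.785% of all 20645 genes: Ccdc153, Ccdc40, Dnah10, Dnah2, Dnah6, Dnah9, Dnali1, Spag16 and Wdr63. Counting by rank alone, over genes above background on all arrays, this array was the highest of the 4 for 25 of 61 (41.0%; 21.8% of all such genes). Without the Ift genes, the other Spag genes and the antisense transcripts it was the highest for 22 of 38 (57.9%), and among the 22 genes above the median signal for 3 (13.6%). It was also the highest for 17 of the 40 primary cilium genes (42.5%) described below, so the share by rank is not particular to the cilia genes chosen here. Heterozygous starch was the lowest for 22 of the 61 (36.1%; 25.5% of all such genes).

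Other probes of the same genes gave a mixed picture. Of the 17 genes past 2-fold by value or bound in heterozygous mice, 7 had further probes, 9 of these 14 probes were above background on at least 1 of the 2 arrays, and 7 of the 9 rose by 2-fold or more, by value or bound, in Dnah12 (both at 1 position), Dnah6, Dnah9, Spag16 and Wdr63. Most of these values are bounds from probes that were above background on heterozygous sucrose and not on heterozygous starch, whose sign is fixed by that. The further probe of Spag17 and 4 others were not above background on either array, and those of Ccdc40 and 1 of Spag16 gave bounds below 2-fold. Among the other genes, 3 of 42 such probes rose, in Ift140 and Spef2, and 1 was lower. By their brightest probe, 1.32% of all measured genes and 17.2% of those with a bound rose by as much. No such share was worked out for the further probes of all genes.

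Genes of the motile cilium that the name rule does not reach were then read from 3 further lists. Together they had 75 genes measured in heterozygous mice, of which 15 were 2-fold or more higher on sucrose (1.32% of all genes) and 1 (Morn3) lower (0.515% of all genes). A further 4 were higher by their bound (17.2% of all genes with a bound), and the median change of the measured genes was 0.26. Of these 4, Lrrc34, Tsnaxip1 and Ttc29 were above background on heterozygous sucrose alone, so the sign of their bounds was fixed by the background rule. Of 74 measured in wild-type mice 1 was higher (0.575% of all genes) and 0 lower (1.09%), Myb was higher by a bound of 1.31 and Stoml3 lower by one of -2.42, and the median was 0.03. Of the 12 genes of the transcription and centriole list, 2 rose, with a median of 0.24. Gmnc, which sets off the multiciliated program, stood at 0.0377, 0.0384, 0.0338 and 0.107 (1.66), Myb at 0.00552, 0.0162, 0.00939 and 0.0464 (2.31), and Ccno, needed for centriole amplification, at 0.271, 0.365, 0.261 and 0.449 (0.78). Myb was not above background on wild-type starch.

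Of 12 genes of dynein assembly and docking, 2 rose, with a median of 0.17. Armc4, which docks outer arms, stood at 0.0373, 0.0675, 0.0400 and 0.111 (1.48), the assembly factor Dnaaf3 at 0.0784, 0.0890, 0.0719 and 0.148 (1.04), and Dyx1c1 at 0.299, 0.361, 0.329 and 0.408 (0.31). Under normexp, 0 genes of these first 2 lists passed 2-fold. Of 51 measured genes of the nexin link, the central pair and the ciliary tubules, 11 rose and 1 fell, with a median of 0.42. Its largest changes were bounds, at least 3.38 for Tctex1d4, 2.93 for Tsnaxip1 and 2.28 for Ttc29, which stood at 0.0695, 0.0511 and 0.0324 on heterozygous sucrose and were not above background on heterozygous starch. Tsnaxip1 and Ttc29 were above background on heterozygous sucrose alone, which fixes the sign of their bounds. Of 40 primary cilium genes 1 passed 2-fold in heterozygous mice, where 1.32% of all genes did, the ciliary receptor Gpr161 (0.509, 0.550, 0.529 and 1.14; 1.1), and the median was 0.01. Mks1 and B9d2, of the transition zone at the base of the cilium, changed by 0.30 and -0.27.

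**Figure D4:**
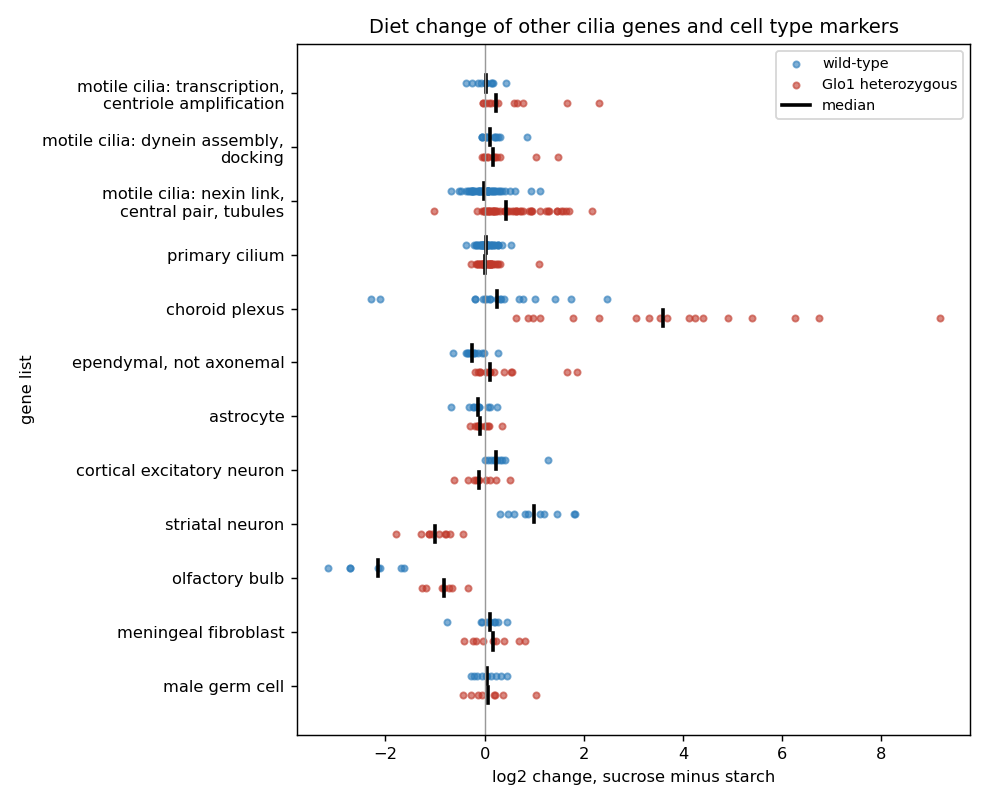
Change on the log2 scale from starch to sucrose (horizontal axis) for the genes of each list (vertical axis), in wild-type mice (blue) and Glo1 heterozygous mice (red); each dot is 1 gene measured on both arrays and black bars are medians. In heterozygous mice the choroid plexus list has a median of 3.60, the 3 motile cilia lists have medians of 0.17 to 0.42 with tails to the right, and the primary cilium list lies at 0.01; the bar of the olfactory bulb list is at -2.14 for wild-type mice.

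The markers of the 2 cell types that carry motile cilia in the brain stand beside these results as follows. Of 18 measured choroid plexus markers 15 were 2-fold or more higher on sucrose in heterozygous mice (1.32% of all measured genes were), and the median was 3.60. Calml4 and Slc4a5 were so by their bounds (17.2% of all genes with a bound were). The largest changes were 9.18 for Ttr, 6.73 for the channel subunit Kcne2 and at least 6.44 for the bicarbonate transporter Slc4a5. Slc4a5 was not above background on wild-type starch and heterozygous starch, nor Calml4 on heterozygous starch; the other 18 markers were above background on every array. In wild-type mice 4 of 19 markers were higher (0.575% of all measured genes) and 2 lower (1.09%), with a median of 0.24. Of 14 ependymal markers outside the axoneme 2 rose in heterozygous mice (1.32% of all measured genes did). Mia stood at 0.358, 0.298, 0.287 and 1.04 (1.85) and Hdc at 0.0737, 0.0475, 0.0635 and 0.201 (1.66), and Rarres2 changed by 0.56. The 14 markers summed to 84.2, 75.2, 79.2 and 81.1, with a median change of 0.11. Aqp4, Gja1 and S100b of this list are also in the astrocyte list. How far its other genes are particular to ependymal cells was not tested, so its sums and median do not measure ependymal content. The 11 astrocyte markers changed by a median of -0.08 and the 9 meningeal fibroblast markers by 0.17. The 8 measured male germ cell markers changed by a median of 0.07 and the 10 cortical excitatory neuron markers by -0.12. The striatal markers were lower with a median of -0.99 and the olfactory bulb markers with one of -0.81. The part of choroid plexus or ependymal RNA in the rise of the cilia genes was not tested.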

How the data were processed

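The 4 groups were read with 1 one-colour Agilent array each. The deposited intensity values were background-subtracted and detrended within each array by Agilent Feature Extraction 11.5.1.1, per the file headers. The deposited series matrix held a ratio, which on comparison was the processed signal divided by the array's 75th percentile. From the deposited intensity, the log2 ratio of each processed signal to that percentile over non-control spots was computed with python 3.11.15, pandas 2.3.3 and numpy 2.4.6. Outlier spots were left out, spots of a probe were averaged, and a gene was represented by the probe with the highest mean among probes well above background on at least 1 array. Comparisons were differences of single arrays, counted at 2-fold; there is no test. The counting was run on copies of 1 array with planted changes and no noise, which checks the arithmetic and not the calls. The normexp alternative used limma 3.58.1 in R 4.3.3 with an offset of 50. Symbols were those of the files; 64 of 66 stand in the RefSeq table of GRCm38.p6. Genes named with a value on every array were those named singly in the name rule and, per role group, the 2 highest, the lowest and the brightest; of other lists, the 3 largest changes. The genes and lists were chosen with earlier results of these data known, so no count is independent support for them. A result for 1 gene of the set is not reported here.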

Additional observations from a re-analysis of the deposited data

Results flagged for a closer look

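The diet change of Foxj1 had opposite signs in the genotypes, at -1.01 in wild-type mice and 1.26 in heterozygous mice on the log2 scale. Tmem212 did so too, with -1.34 in wild-type mice and at least 5.32 in heterozygous mice. For Tmem212 the genotype change also differed in sign between the diets, with a bound of -1.32 on starch and 5.34 on sucrose. Each of these differences rests on single arrays and was not tested.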

How the results depend on the processing

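The alternatives were median scaling, quantile normalization, normexp background correction, the series matrix values, a stricter and no filter on dim probes, the mean over probes, another choice of probe, outlier spots kept and a 1.5-fold threshold. Single genes were recomputed for the diet comparisons only, and there no change past 2-fold reversed its direction. Normexp lowered several counts: 8 genes higher on sucrose in heterozygous mice (14 as reported), 1 lower in wild-type mice, 0 lower between genotypes on starch, 7 higher and 0 lower against the control on heterozygous sucrose, 0 in the transcription list, 0 in the assembly list, and a median of 0.24 in the nexin list. Counting bounds, 10 of the 17 genes that rose in heterozygous mice stayed past 2-fold under it; Ccdc40 (0.998), Dnah10 (0.74), Foxj1 (0.88), Rsph4a (0.75), Spag16 (0.48) and Spag17 (0.36) were among those that did not. Requiring signal on all arrays left 1 risen gene in the transcription list. With no filter, 2 genes were higher in wild-type mice, 3 lower between genotypes on starch, 1 lower between genotypes on sucrose, and 17 higher in the nexin list. With the mean over probes, 1 gene was higher in wild-type mice, 2 lower in heterozygous mice, 1 higher between genotypes on starch, 2 lower on sucrose, 2 lower against the control on heterozygous sucrose and 1 lower in the interaction; the transcription list had a median of 0.48, the assembly list 1 risen gene and the primary cilium list 0. At 1.5-fold, 1 gene was higher and 7 lower in wild-type mice, 6 lower between genotypes on starch and 2 lower against the control on heterozygous sucrose. The other 218 values of this kind stayed within 1.5 times the reported count or, for medians, within 0.124 on the log2 scale. Over all settings at 2-fold, the count higher between genotypes on sucrose ran from 10 to 16 and that of the interaction from 11 to 18. The cause of these shifts was not tested. No paired analysis was possible because each group had 1 array, and for the same reason no array could be left out. Changes of genes in the dimmest class are limited by the spread of 0.476 between repeat spots.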
